A study of Canis lupus familiaris with 6 samples.

Results

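The genes described here encode the subunits of the mitochondrial respiratory chain and of ATP synthase. They were chosen by symbol from the protein-coding genes of the deposited gene table: the NDUFA, NDUFB, NDUFC, NDUFS and NDUFV families, SDHA to SDHD, the UQCR genes, CYC1, the COX4 to COX8 families, the genes named ATP5, and the 13 protein-coding genes of the mitochondrial genome. The rule found 86 of the 35993 genes in the table, 73 of them nuclear and 13 mitochondrially encoded. Complex I was represented by 37 nuclear and 7 mitochondrially encoded genes, complex III by 6 and 1, complex IV by 11 and 3 and complex V by 15 and 2, and complex II by 4 nuclear genes. NDUFA4 and NDUFA4L2, which carry complex I names, were counted with complex IV, where the NDUFA4 protein is found. Subunits listed under other symbols are not analysed here.

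CPEK is a line of canine epidermal keratinocytes, labelled as wild type. One group of cultures received cold atmospheric microwave plasma directly for 30 s (dCAMP, 3 libraries), and the control group received the gas without plasma (gas, 3 libraries). Both groups were given fresh medium 15 min later and were harvested for RNA after another 24 h. The design asks which genes differ between dCAMP-treated cells and the gas control. Everything rests on 1 cell line, and the labels do not say whether the 3 libraries of a group came from separate cultures, so the p-values measure the spread between these libraries.

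Electrons from NADH enter the chain at complex I and those from succinate at complex II. They pass through complex III and cytochrome c to complex IV, which reduces oxygen, and the proton gradient built on the way drives ATP synthase, complex V. The subunits come from both genomes: the mitochondrial genome encodes hydrophobic core subunits of complexes I, III, IV and V, while the other subunits and all of complex II are made from nuclear genes and imported. In keratinocytes, as in most cells, most of the nuclear subunits are expressed as housekeeping genes, apart from tissue-dependent forms.

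Total counts ranged from 43084921 to 54082634 per library. Expression is given for 1 gene across libraries as CPM, counts scaled to the TMM-normalized library size, and between genes as the deposited FPKM, which is per transcript length. All 10 keratinocyte markers were detected in every library, with summed levels of 51559 to 62556 CPM in gas and 48341 to 51566 CPM in dCAMP. Of 7 fibroblast markers, DCN and LUM were at 0 throughout, and the sum, most of it VIM, was 565.9 to 623.3 CPM in gas and 384.0 to 448.1 CPM in dCAMP. Of 4 melanocyte markers TYR and DCT were at 0 and 1 had 3 or more counts in every library, with sums of 0.456 to 0.843 CPM in gas and 0.604 to 0.841 CPM in dCAMP. Of 4 leukocyte markers PTPRC and CD3E were at 0 and 2 had 3 or more counts in every library, with sums of 1.70 to 2.23 CPM in gas and 1.42 to 2.94 CPM in dCAMP. Of 3 endothelial markers PECAM1 was at 0 and 2 were detected throughout, with sums of 11.8 to 14.7 CPM in gas and 14.1 to 19.3 CPM in dCAMP. The part of these markers in the differences below was not tested. The gas libraries stood apart from each other: the chi-square per degree of freedom between pairs was 85.4 to 317.7 in gas and 6.50 to 10.2 in dCAMP. For this reason the values of gas 1, gas 2 and gas 3 are given singly, and results are repeated without gas 1 and without gas 3.

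Across the 14708 genes tested, the quasi-likelihood test of edgeR, with Benjamini-Hochberg adjusted p-values, gave no gene an adjusted p under 0.05 (0% called). Without adjustment 3040 genes had a p under 0.05, with 13.9% of all genes tested lower and 6.81% higher in dCAMP. DESeq2 gave 301 genes an adjusted p under 0.05, and 0 of the 79 subunits to which it gave one. Of the 86 subunits, 81 passed the filter on low counts, 68 nuclear and 13 mitochondrially encoded. The counts and medians below describe the subunits that passed.

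The 13 mitochondrially encoded subunits were low in gas 1, mostly intermediate in gas 2, and in gas 3 at or slightly above the level of the dCAMP libraries. Of all counts they took 0.505% in gas 1, 1.41% in gas 2 and 2.33% in gas 3, against 2.16%, 2.21% and 2.19% in dCAMP 1, 2 and 3. In gas 1 all 13 were below every dCAMP library, with a median log2 ratio of −2.45 to the dCAMP mean, where 44.2% of all genes tested were below every dCAMP library. In gas 2 the median ratio was −0.70 with 12 below every dCAMP library (40.9% of all genes tested), and in gas 3 it was 0.15 with 12 above every dCAMP library (32.3%). In bulk RNA, fewer cells with a high level of these RNAs and less of them per cell cannot be told apart.

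**Figure D1:**
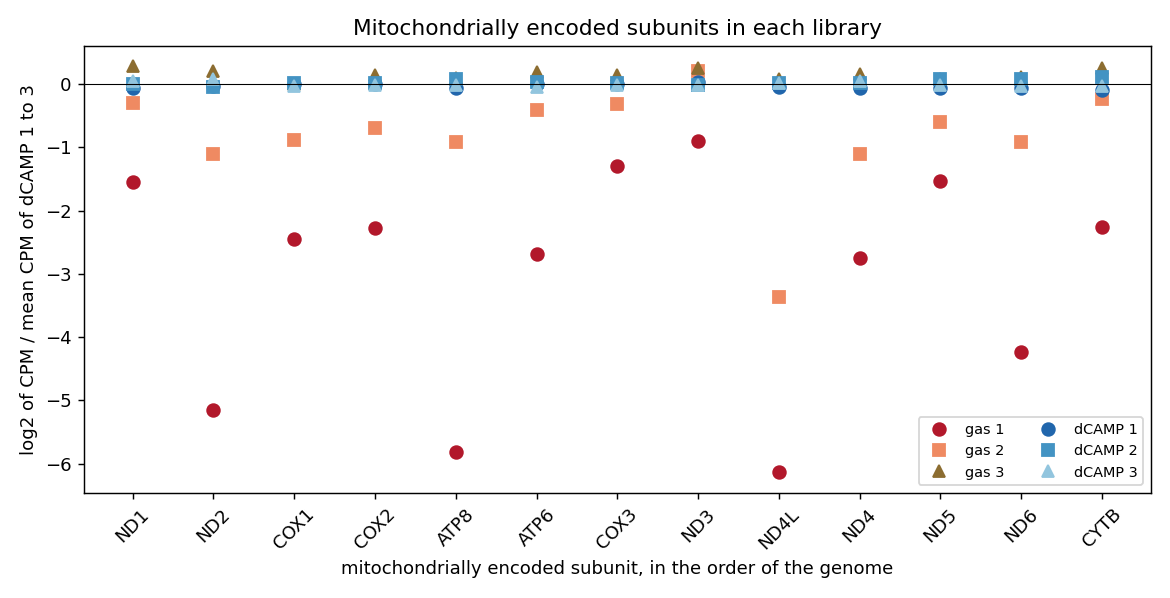
The 13 mitochondrially encoded subunits in the order of the genome (x axis), with the log2 of each library's CPM over the mean of the 3 dCAMP libraries (y axis); each point is 1 gene in 1 library, and 0 is the dCAMP mean. Gas 1 lies below 0 for all 13 genes, from −0.89 for ND3 to −6.13 for ND4L, while gas 3 lies between 0.00 and 0.28.

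ND4L, a small membrane subunit of complex I, was the most uneven (mitochondrial genome of CanFam3.1, 9911 to 10207). It had 3.13, 21.4 and 232.3 CPM in gas 1, 2 and 3, and 214.1, 222.4 and 223.9 CPM in dCAMP 1, 2 and 3, the order kept below. Gas 1 was 70.3-fold below the dCAMP mean, and gas 3 was above all 3 dCAMP libraries, so the groups overlapped. ND4 (10201 to 11578), a proton-pumping subunit whose reading frame overlaps the end of ND4L by 7 bases, had 234.7, 733.0 and 1757 CPM in gas and 1508, 1599 and 1627 CPM in dCAMP. It followed the same order of libraries, but gas 1 was 6.72-fold below the dCAMP mean.

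ATP8 (7803 to 8006) and ATP6 (7964 to 8644) encode membrane subunits of ATP synthase, share 43 bases and are translated from 1 messenger. ATP8 had 12.8, 384.6 and 768.8 CPM in gas and 692.4, 759.9 and 712.6 CPM in dCAMP. ATP6 had 527.0, 2572 and 3880 CPM in gas and 3418, 3482 and 3315 CPM in dCAMP. Gas 1 was the low library for both, 56.4-fold below the dCAMP mean for ATP8, with a log2 ratio of −5.82, and with one of −2.69 for ATP6.

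Overlapping reading frames differed from each other in gas 1 by more than in the dCAMP libraries. ATP8 and ND4L, the upstream frames of their pairs, were low in gas 1 against the downstream frames. The FPKM of ATP8 over that of ATP6 was 0.0809, 0.499 and 0.661 in gas and 0.676, 0.729 and 0.718 in dCAMP. The FPKM of ND4L over that of ND4 was 0.0618, 0.135 and 0.614 in gas and 0.659, 0.645 and 0.638 in dCAMP. The gas 1 ratio was thus 8.74-fold and 10.5-fold below the dCAMP mean of these pairs. ATP6, which shares its last base with COX3 downstream, had an FPKM ratio to COX3 of 0.421, 1.04 and 1.15 in gas and of 1.12, 1.12 and 1.10 in dCAMP. How reads in the shared bases were assigned is not given in the sources used here. ND6, the subunit encoded on the opposite strand to ND5 and overlapping it by 17 bases, had an FPKM ratio to ND5 of 0.0231, 0.120 and 0.153 in gas, and of 0.151, 0.152 and 0.149 in dCAMP. Here the frame that lies downstream on the genome map was the low one in gas 1.

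**Figure D2:**
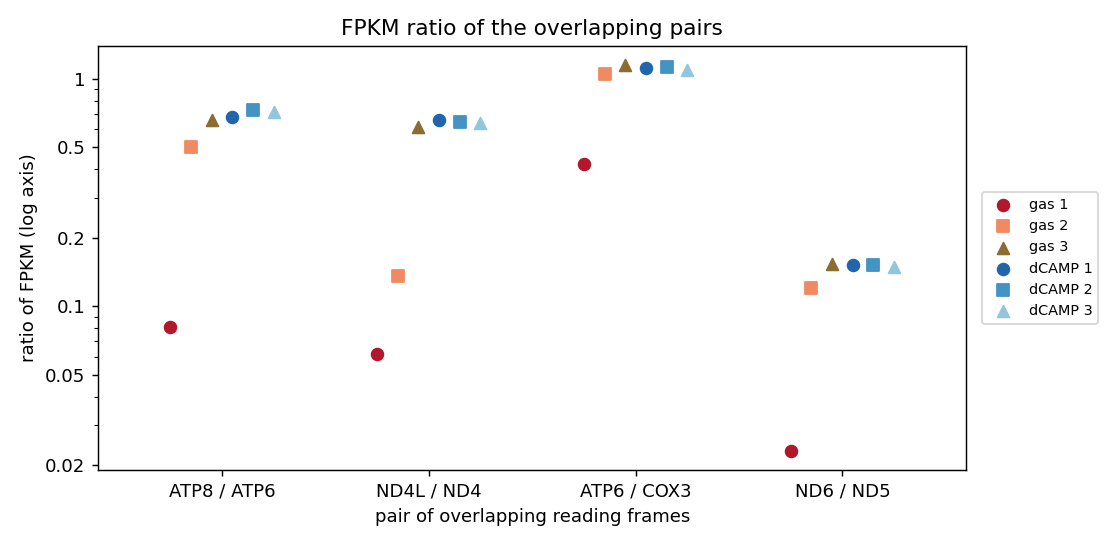
FPKM ratio of 4 overlapping mitochondrial pairs (log axis) in each of the 6 libraries, 1 point per library; the gene named first is divided by the one named second. Gas 1 is lowest for each pair (0.0809, 0.0618, 0.421 and 0.0231), gas 2 is next, and gas 3 is close to the 3 dCAMP libraries.

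The other complex I subunits of the mitochondrial genome were uneven to different degrees. ND2 had 16.0, 263.8 and 653.6 CPM in gas and 558.5, 548.5 and 598.2 CPM in dCAMP, and ND6 had 1.84, 18.1 and 37.0 CPM in gas and 33.0, 36.5 and 33.7 CPM in dCAMP. Gas 1 was 35.5-fold and 18.7-fold below the dCAMP mean for these genes. ND1 had 379.2, 897.0 and 1347 CPM in gas and 1057, 1114 and 1152 CPM in dCAMP, and ND5 had 271.1, 521.4 and 834.1 CPM in gas and 752.0, 828.0 and 779.5 CPM in dCAMP. ND3 was the most even, with 248.6, 531.3 and 547.8 CPM in gas and 472.3, 454.6 and 457.2 CPM in dCAMP, so that gas 2 and gas 3 were both above every dCAMP library. ND3 and ND4L, the most even and the most uneven, are of similar length, at 346 and 297 bases.

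CYTB, the mitochondrially encoded heme protein of complex III, had 83.7, 341.5 and 476.7 CPM in gas and 375.4, 432.2 and 393.7 CPM in dCAMP. COX1, COX2 and COX3 form the catalytic core of complex IV. COX1 had 1217, 3598 and 6663 CPM in gas and 6681, 6739 and 6523 CPM in dCAMP. By count it was the most abundant subunit in every library but gas 1, where COX3 and ATP5B had more. COX2 had 493.9, 1474 and 2638 CPM in gas and 2386, 2425 and 2359 CPM in dCAMP, and COX3 had 1440, 2836 and 3895 CPM in gas and 3512, 3569 and 3481 CPM in dCAMP. In all 4 genes gas 1 and gas 2 were below the dCAMP mean and the groups overlapped, since gas 3 reached or passed dCAMP levels.

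The order of the mitochondrial genes by FPKM also differed in gas 1. In the dCAMP mean the order was ATP6 (4394 FPKM), COX3 (3947), COX1 (3781), ATP8 (3109), COX2 (3070), ND3 (1172), ND1 (1018), ND4 (1006), ND4L (651.4), ND2 (479.4), ND5 (379.6), CYTB (308.8) and ND6 (57.2). Neighbours in this order did not overlap over the 3 dCAMP libraries, apart from ATP8 with COX2 and ND1 with ND4. In gas 1 COX3 was highest, with 32.1% of the summed mitochondrial FPKM against 16.9% in the dCAMP mean. There ATP8 moved from rank 4 to rank 10, with 1.09% against 13.3%, and ND4L from rank 9 to rank 12. In gas 3 each of these genes was within 1 rank of its dCAMP place.

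None of the 13 mitochondrially encoded subunits had an unadjusted p under 0.05 in edgeR (0 of 13), nor did any of the 12 to which DESeq2 gave a p-value. DESeq2 gave none for ND4L. Their log2 fold changes in dCAMP against gas were all above 0, from 0.06 for ND3 to 1.36 for ND4L (SE 1.28, adjusted p = 0.480), with a median of 0.64 beside 0.03 over all genes tested. The adjusted p ranged from 0.355 for COX1 (log2 fold change 0.80, SE 0.54) to 0.898 for ND3. The result turned on single gas libraries. Without gas 1 the median was 0.20, and ND1 (−0.03), ND3 (−0.24) and CYTB (−0.05) changed sign. Without gas 3 the median was 1.24, and ND4L (4.12, adjusted p = 0.0235), ND4 (1.66, adjusted p = 0.0438) and ND5 (0.95, adjusted p = 0.0451) were higher in dCAMP by edgeR, where 15% of all genes tested were called higher and 18.1% lower.

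The nuclear subunits showed another order of libraries. Their median log2 ratio to the dCAMP mean was 0.31, 0.21 and 0.05 in gas 1, 2 and 3. The medians of complex IV were −0.05, −0.07 and −0.02 in gas 1, 2 and 3. Those of complex V were 0.05, 0.14 and 0.07. The complex IV medians rest on 7 genes. These include COX7A2L, whose ratio is the gas 1 median, and COX4I2, with 11 to 36 counts per library and a gas 1 ratio of −0.73. In gas 1 COX4I1, COX5B and COX8A had ratios of 0.52, 0.44 and 0.39, and COX5A and NDUFA4 of −0.54 and −0.50. Gas 1 was the highest of the 6 libraries for 38 of the 68 nuclear subunits tested and the lowest for 18. Over all genes tested it was the highest for 36.9% and the lowest for 39.2%. An unadjusted p under 0.05 was found for 24, of which 23 were lower and 1, COX4I2, was higher in dCAMP. This is 33.8% and 1.47% of the 68, beside the 13.9% and 6.81% of all genes tested. The 68 were chosen by symbol and include ATP5S, COX7A2L, both ATP5O entries and loci that may be copies, as described below. The median log2 fold change was −0.20, beside 0.03 over all genes tested. The adjusted p was 0.221 or more for every nuclear subunit.

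**Figure D3:**
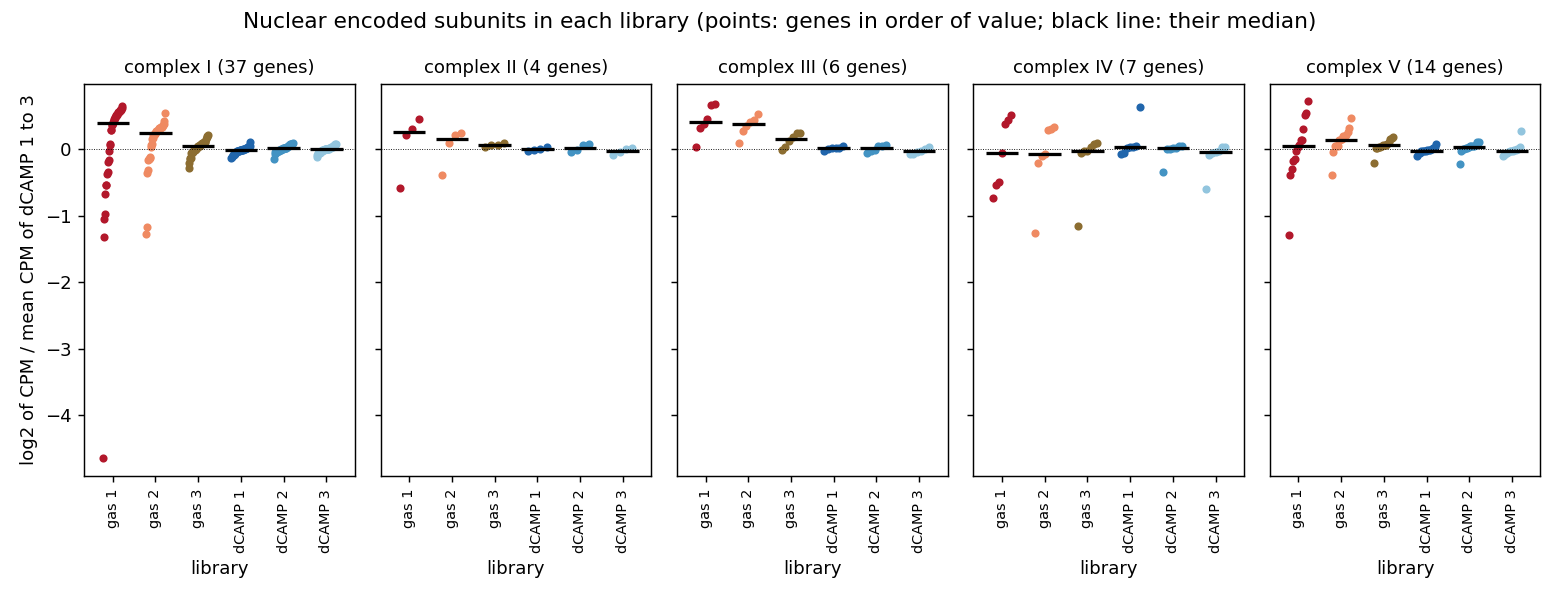
Nuclear encoded subunits of complexes I to V that passed the filter, with the log2 of each library's CPM over the mean of the 3 dCAMP libraries (y axis) by library (x axis); each point is 1 gene and black lines are medians. In gas 1 the medians of complexes I, II, III and V lie above 0 (0.39, 0.26, 0.41 and 0.05) and that of complex IV below 0 (−0.05), and NDUFB1 is the lowest point at −4.65.

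The dCAMP libraries lay below all 3 gas libraries for 32 of the 68 nuclear subunits and above them for 4, where 20.9% and 19% of all genes tested did so. Without gas 3, edgeR gave 34 nuclear subunits a lower level in dCAMP with an adjusted p under 0.05 and 2, NDUFB6 and SDHD, a higher one (50% and 2.94%, beside 18.1% and 15% of all genes tested). Without gas 1, 14 were lower and 1 was higher by an unadjusted p under 0.05, where 11.8% and 8.75% of all genes tested were.

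A trend on gene length also differed between the libraries. It was taken as the deviation of each library from the mean of a gene over the libraries. At the lengths of the 68 nuclear subunits its median was 0.067, 0.084 and 0.002 in gas 1, 2 and 3. The nuclear medians above, against the dCAMP mean, were 0.31, 0.21 and 0.05. Between the 10th and the 90th percentile of transcript length, short genes stood above long genes by 0.32 in gas 1 and 0.18 in gas 2 on the log2 scale, and below them by a difference of −0.09 in gas 3 and −0.11 to −0.15 in the dCAMP libraries. With that trend removed, 9 nuclear subunits had an unadjusted p under 0.05 in edgeR, 8 lower and 1 higher. The share of all genes tested under this correction is not given here. The median log2 fold change of the nuclear subunits was −0.18 beside −0.04 over all genes tested. Without the correction these medians were −0.20 and 0.03.

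Complex I holds 7 nuclear core subunits, some of which bind the flavin or iron-sulfur clusters, and 30 accessory subunits among the genes found. The core subunits lower with an unadjusted p under 0.05 included NDUFS3, NDUFS8 and NDUFV1, with log2 fold changes of −0.25, −0.34 and −0.35. NDUFV2 and NDUFS1 had log2 fold changes of 0.23 and 0.19 and were low in gas 1, with log2 ratios to the dCAMP mean of −0.67 and −0.54. Of the accessory subunits, 9 were lower with an unadjusted p under 0.05 and 0 were higher, which is 30% and 0% beside 13.9% and 6.81% of all genes tested. NDUFA8, the most abundant nuclear gene of the complex, had 301.3, 247.7 and 202.3 CPM in gas and 199.9, 209.4 and 203.5 CPM in dCAMP. Its groups overlapped through gas 3, and its log2 fold change was −0.29 (SE 0.15, adjusted p = 0.276).

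NDUFA11, an accessory membrane subunit, had the lowest log2 fold change of complex I (chromosome 20, 54183584 to 54189435). It had 113.9, 97.6 and 83.4 CPM in gas and 73.7, 75.5 and 69.3 CPM in dCAMP. All gas libraries were above all dCAMP libraries, and the log2 fold change was −0.43 (SE 0.13, unadjusted p = 0.0146, adjusted p = 0.221). NDUFB1 had the highest log2 fold change and the lowest FPKM of the complex (chromosome 6, 12282378 to 12284799). The locus overlaps another gene, RNF216, and the reference table gives the identifier a placeholder symbol and not NDUFB1, so it may not be the NDUFB1 gene. Without it NDUFB6 had the highest log2 fold change and NDUFB5 the lowest FPKM of the nuclear genes of the complex. It had 16, 202 and 379 counts in gas and 412, 391 and 359 counts in dCAMP, or 0.346, 3.84 and 7.14 CPM against 8.89, 9.12 and 7.95 CPM. All dCAMP libraries were above all gas libraries, with gas 1 25.0-fold below the dCAMP mean, yet the log2 fold change of 1.18 (SE 0.82) had an adjusted p of 0.363 in edgeR.

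NDUFB6, NDUFA5 and NDUFB5, also accessory subunits, were low in gas 1 as the mitochondrially encoded subunits were. NDUFB6 had 20.8, 21.6 and 50.5 CPM in gas and 50.3, 52.8 and 52.6 CPM in dCAMP, so gas 1 and gas 2 were low and gas 3 overlapped dCAMP. Its log2 fold change was 0.75 (SE 0.35, adjusted p = 0.263), and 1.25 (adjusted p = 0.0203) without gas 3. NDUFA5 had 21.9, 40.7 and 44.8 CPM in gas and 42.8, 45.9 and 46.5 CPM in dCAMP. NDUFB5 had 32.4, 49.7 and 57.9 CPM in gas and 58.3, 67.1 and 65.2 CPM in dCAMP. NDUFA1 is listed under 2 identifiers, on chromosome X and on chromosome 17, with log2 fold changes of 0.17 and −0.24, and how reads were shared between these copies is uncertain. The chromosome 17 locus spans 413 bases, the length of its transcript, so it has no intron. It overlaps GABPB2 and has a placeholder symbol in the reference table, so it may be a copy and not the NDUFA1 gene.

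Complex II, succinate dehydrogenase, has no mitochondrially encoded subunit. SDHB, its iron-sulfur subunit (chromosome 2, 81158291 to 81190110), had 135.0, 116.5 and 105.1 CPM in gas and 98.3, 97.5 and 100.1 CPM in dCAMP. All gas libraries were above all dCAMP libraries, and the log2 fold change was −0.27 (SE 0.11, unadjusted p = 0.0483, adjusted p = 0.240). SDHA, the flavoprotein, had a log2 fold change of −0.20 without overlap of the groups, and SDHC, a membrane anchor, one of −0.12 with overlap. SDHD, the other membrane anchor, had 72.1, 82.7 and 112.9 CPM in gas and 105.5, 113.0 and 104.9 CPM in dCAMP. It was low in gas 1 and gas 2, with a log2 fold change of 0.27 (SE 0.17, adjusted p = 0.333), and of 0.43 (adjusted p = 0.0255) without gas 3.

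Complex III had the largest share of nuclear subunits with an unadjusted p under 0.05 among the 5 complexes, 4 of 6 (66.7%, beside 13.9% of all genes tested), all lower: CYC1, UQCR11, UQCRFS1 and UQCRQ. Its median log2 fold change was −0.31, and −0.27 without gas 1. CYC1, the cytochrome c1 heme protein (chromosome 13, 37590919 to 37593239), had 406.7, 368.0 and 301.8 CPM in gas and 258.3, 263.9 and 242.4 CPM in dCAMP. The groups did not overlap, and the log2 fold change was −0.49 (SE 0.12, unadjusted p = 0.00607, adjusted p = 0.221), the lowest of the nuclear subunits. Its adjusted p was 0.0203 without gas 3 and up to 0.502 without another library. UQCR11, a small subunit, had 89.3, 76.1 and 66.4 CPM in gas and 57.1, 58.1 and 53.4 CPM in dCAMP, a log2 fold change of −0.46 (SE 0.13). UQCRFS1, the Rieske iron-sulfur protein, and UQCRQ had log2 fold changes of −0.25 and −0.33, UQCR10, the least abundant, one of −0.29, and UQCRH one of −0.04.

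Complex IV had 11 nuclear genes, of which 7 were tested. Their median log2 fold change was 0.10, the value of COX7A2L, with 4 above 0. COX4I1, COX8A and COX5B had −0.32, −0.26 and −0.26, and COX5A and NDUFA4 had 0.19 and 0.19. With an unadjusted p under 0.05, 2 were lower and 1 was higher (28.6% and 14.3%, beside 13.9% and 6.81% of all genes tested). COX4I1, the ubiquitous form of subunit 4 and the most abundant (chromosome 5, 66883730 to 66891734), had 397.3, 348.8 and 293.3 CPM in gas and 281.1, 278.9 and 272.4 CPM in dCAMP. The groups did not overlap, with a log2 fold change of −0.32 (SE 0.12, adjusted p = 0.230). Its paralog COX4I2, known from lung and from responses to low oxygen, had 14, 11 and 12 counts in gas and 36, 17 and 15 counts in dCAMP. Every dCAMP library was above every gas library in CPM, with a log2 fold change of 0.93 (SE 0.38, unadjusted p = 0.0474, adjusted p = 0.240), but the mean FPKM in dCAMP was 0.559 beside 316.4 for COX4I1.

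The muscle or tissue-dependent forms of the other complex IV subunits were near or at 0. COX7A1 was listed at 0 in all 6 libraries, which allows up to 3 counts in each. COX6A2 had 3, 0 and 0 counts in gas and 4, 0 and 0 in dCAMP, NDUFA4L2 had 7, 0 and 6 in gas and 9, 0 and 0 in dCAMP, and COX7B2 had 1 count, in gas 2. The forms expressed in most tissues were at higher levels: COX8A had a mean of 211.0 FPKM in dCAMP with a log2 fold change of −0.26, and NDUFA4 had 305.5 FPKM with one of 0.19. COX7A2L, which is named for subunit 7A but acts in supercomplex assembly, had a log2 fold change of 0.10 (adjusted p = 0.430).

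Complex V, ATP synthase, had 14 of 15 nuclear genes tested, and ATP5I was listed at 0 in all libraries. The ATP5I locus spans 216 bases, the length of its transcript, so it has no intron. It may be a copy, though the reference table names it ATP5ME, so its 0 may not be the level of the subunit. ATP5B, the catalytic beta subunit and the most abundant nuclear gene of the 5 complexes at 625.2 FPKM in dCAMP, had 1567, 1456 and 1355 CPM in gas and 1253, 1290 and 1243 CPM in dCAMP. Its groups did not overlap, with a log2 fold change of −0.21 (SE 0.08, unadjusted p = 0.0328). ATP5D, the delta subunit of the central stalk (chromosome 20, 57547575 to 57550110), had 563.9, 473.9 and 391.0 CPM in gas and 337.8, 354.8 and 335.3 CPM in dCAMP, the lowest log2 fold change of the complex at −0.48 (SE 0.14, adjusted p = 0.221). ATP5A1, the alpha subunit, and ATP5C1, the gamma subunit, had log2 fold changes of −0.10 and 0.05. Of the 14 genes 3 were lower with an unadjusted p under 0.05 (21.4%, beside 13.9% of all genes tested) and 0 were higher, and the median log2 fold change was −0.09.

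Subunit c, which forms the rotating ring of ATP synthase, is encoded by 3 genes for the same mature protein. ATP5G2 had 437.1, 380.4 and 343.6 CPM in gas and 306.3, 299.7 and 312.7 CPM in dCAMP, a log2 fold change of −0.34 (SE 0.10, unadjusted p = 0.0158) with no overlap of the groups. ATP5G1 had a log2 fold change of −0.31 (unadjusted p = 0.0512), also with no overlap, and ATP5G3 one of −0.04 with overlap. By FPKM in dCAMP the order was ATP5G2 (357.8), ATP5G1 (260.3) and ATP5G3 (216.0). ATP5J, a peripheral stalk subunit, was low in gas 1 alone, with 45.5, 108.9 and 112.8 CPM in gas and 107.0, 116.7 and 110.9 CPM in dCAMP. ATP5S, named with this family but not a subunit of the enzyme, had the highest log2 fold change of the complex at 0.33 (SE 0.16, adjusted p = 0.276). ATP5O is listed at 2 loci with nearly equal counts, and the split of reads between them is uncertain.

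**Figure D4:**
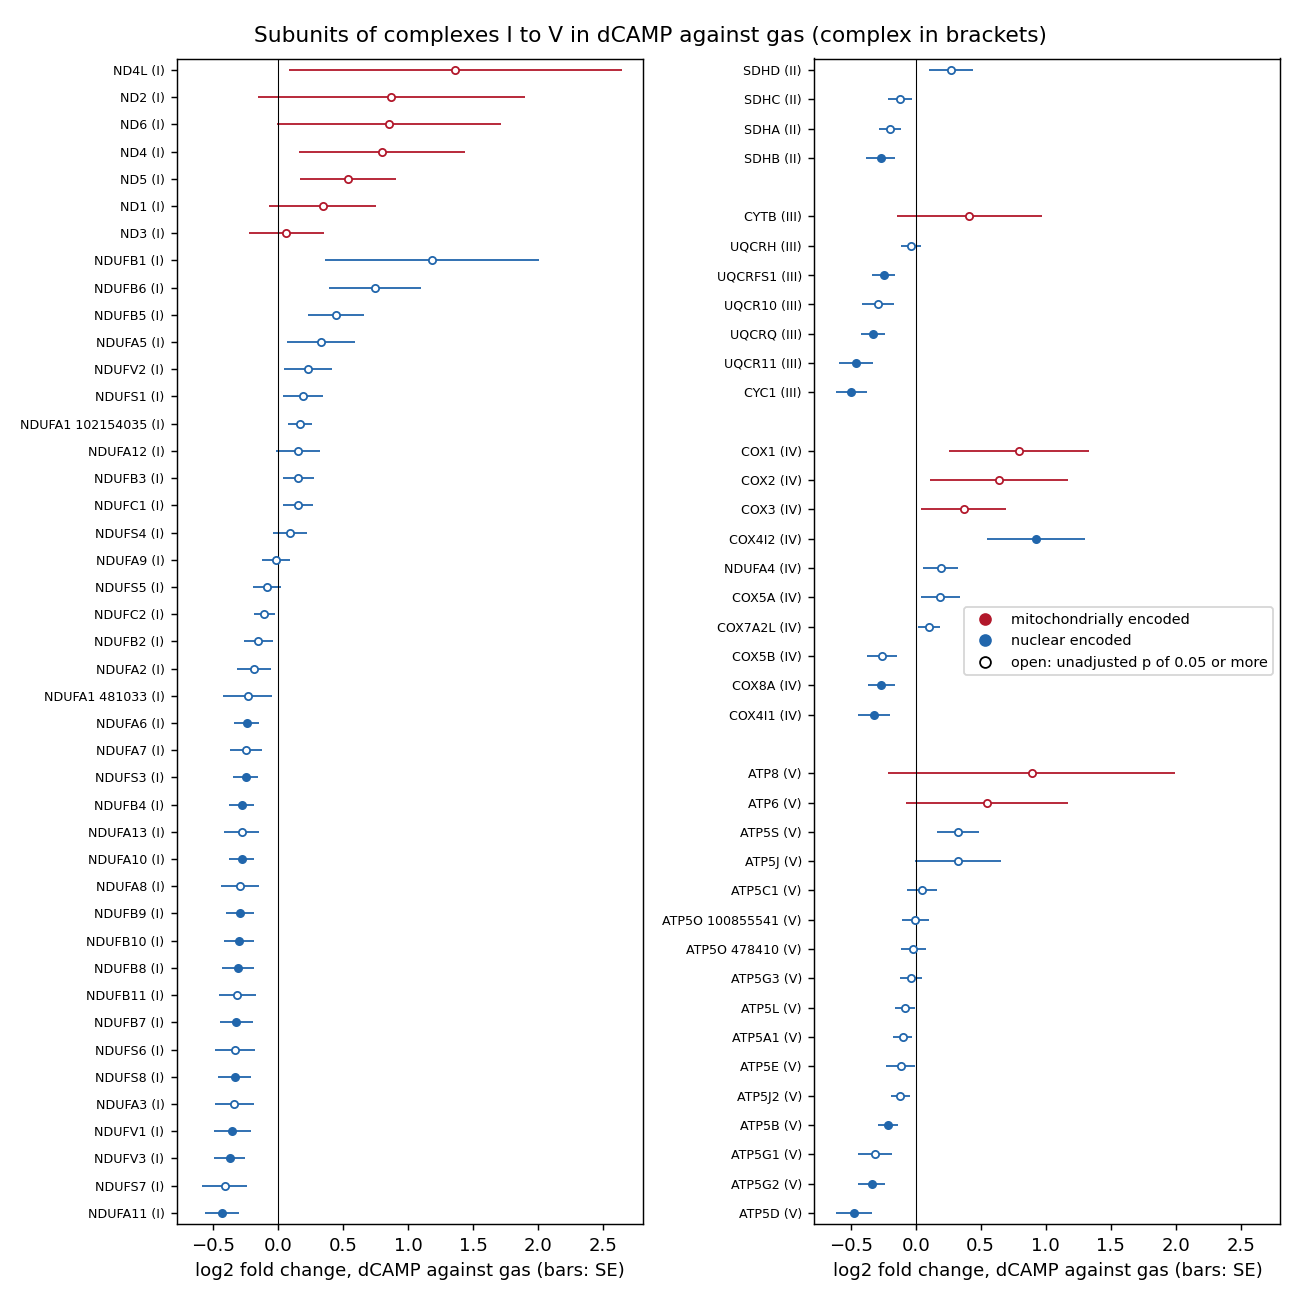
log2 fold change of dCAMP against gas (x axis, bars are SE) for 80 of the 81 subunits tested, by complex and genome, with filled points for an unadjusted p under 0.05. The 13 mitochondrially encoded genes lie above 0 with wide bars, and 22 of the 23 filled points are nuclear genes below 0.

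The contrast of both genomes was read per library from summed FPKM. Summed over complexes, the mitochondrially encoded subunits had 5148, 15504 and 25356 FPKM in gas 1, 2 and 3 and 22984, 23958 and 23180 FPKM in dCAMP. The nuclear subunits had 10133, 9567 and 8708 FPKM in gas and 8313, 8602 and 8295 FPKM in dCAMP. The ratio of mitochondrial to nuclear FPKM was 0.508, 1.62 and 2.91 in gas and 2.76, 2.79 and 2.79 in dCAMP. Gas 1 and gas 2 were below and gas 3 above the dCAMP libraries, whose ratios differed by an SD of 0.0151.

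FPKM is relative to all reads of a library, so reads of one genome bear on the values of the other. With mitochondrially encoded genes left out of the library sizes, the median log2 fold change of the nuclear subunits was −0.23. On the log2 scale the mean ratio was 1.06 higher in dCAMP than in gas, which is less than the SD of 1.28 between the gas libraries. It was 0.36 without gas 1 and 1.62 without gas 3.

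In each complex with subunits of both genomes gas 1 had the lowest ratio, gas 2 the next and gas 3 the highest. In complex I the ratio was 0.350, 0.929 and 1.74 in gas and 1.55, 1.56 and 1.61 in dCAMP. In complex III it was 0.0633, 0.273 and 0.441 in gas and 0.378, 0.438 and 0.412 in dCAMP, where CYTB is set against 6 nuclear genes. In complex IV it was 2.07, 4.98 and 8.71 in gas and 8.26, 8.30 and 8.39 in dCAMP. This was the highest ratio in every library for the genes found. Among others, those of complex IV lack COX6A1, COX6B1, COX6C, COX7A2, COX7B and COX7C, and those of complex III lack UQCRB, UQCRC1 and UQCRC2. Those of complex V lack ATP5F1 and ATP5H and hold both entries of ATP5O. Ratios of different complexes thus depend also on which symbols the deposited table holds. Complex V was the most uneven, with 0.214, 1.45 and 2.59 in gas and 2.47, 2.51 and 2.48 in dCAMP. In gas 1 its mitochondrial sum was 9.96-fold below the dCAMP mean, against 3.62-fold in complex I, 4.67-fold in complex III and 3.59-fold in complex IV. The nuclear sums of gas 1 were above the dCAMP mean by 1.24-fold in complex I, 1.16-fold in complex II, 1.38-fold in complex III, 1.12-fold in complex IV and 1.16-fold in complex V.

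**Figure D5:**
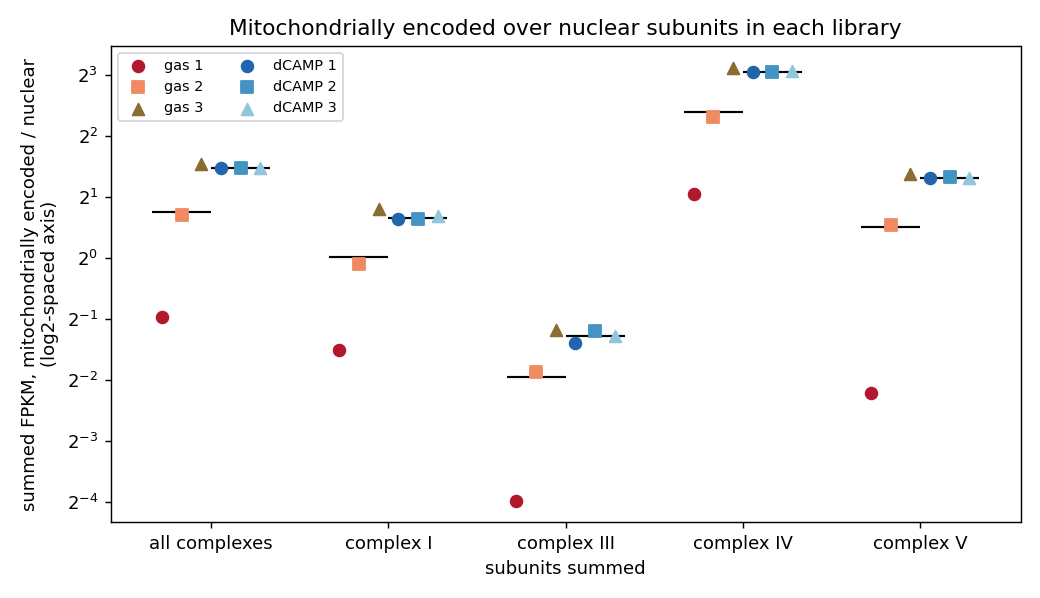
Summed FPKM of the mitochondrially encoded subunits over that of the nuclear subunits (y axis, log2-spaced) for all complexes and for complexes I, III, IV and V, 1 point per library, with black lines at the mean of each group. Gas 1 is lowest and gas 3 highest in each set, and in complex III gas 3 (0.441) and dCAMP 2 (0.438) nearly meet.

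Assembly factors, the proteins that build the complexes without staying in them, were read from a list of 51 genes, of which 39 were tested. Of these, 6 were lower in dCAMP with an unadjusted p under 0.05, 15.4% of the list beside 13.9% of all genes tested, and 0 were higher. The median log2 fold change was 0.10, beside 0.03 over all genes tested. ECSIT and FOXRED1, both needed for building complex I, had the lowest p among those lower: ECSIT had 44.6, 36.1 and 34.3 CPM in gas and 27.7, 26.4 and 26.5 CPM in dCAMP (log2 fold change −0.51, SE 0.13), and FOXRED1 had 103.2, 83.9 and 70.1 CPM in gas and 57.1, 59.4 and 55.3 CPM in dCAMP (−0.58, SE 0.15). The groups did not overlap for either gene, and the adjusted p was 0.221 for both.

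Of the factors with a log2 fold change above 0, LYRM7 and SDHAF4 had the lowest p, which was not under 0.05 for either (0.106 and 0.114 unadjusted). LYRM7, which serves the Rieske protein of complex III, had 1.97, 3.21 and 7.77 CPM in gas and 7.55, 7.42 and 9.32 CPM in dCAMP (log2 fold change 0.90, SE 0.48, adjusted p = 0.288). SDHAF4, a factor of complex II, had 3.63, 7.88 and 11.5 CPM in gas and 11.1, 12.1 and 14.7 CPM in dCAMP (0.72, SE 0.39, adjusted p = 0.295). Gas 1 was the lowest library for both, and gas 3 overlapped dCAMP. The factors of complex IV had a median log2 ratio to the dCAMP mean of −0.60, −0.23 and 0.05 in gas 1, 2 and 3, with 9 of 13 lowest in gas 1 (39.2% of all genes tested were). CYCS, cytochrome c, the carrier between complexes III and IV, had 174.8, 194.2 and 306.4 CPM in gas and 262.9, 293.8 and 264.7 CPM in dCAMP, with a log2 fold change of 0.28 (SE 0.22, adjusted p = 0.396) and gas 3 above every dCAMP library.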

How the data were processed

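RNA-Seq was made from stranded mRNA libraries of CPEK cells, 3 treated with gas and 3 with dCAMP. The authors trimmed reads (FastQC 0.11.7, Trimmomatic 0.38), mapped them to CanFam3.1 with HISAT2 2.1.0 and summarized known transcripts with StringTie 2.1.3b. The authors deposited raw read counts per gene, as whole numbers, beside FPKM and TPM values that they scaled by transcript length and depth. How reads on overlapping loci were counted is not given in the sources used here. Coordinates come from the transcript table. Of the 86 genes, 71 were found in the reference table (UU_Cfam_GSD_1.0), used for names only, and 23 nuclear loci overlap another gene.

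Counts were analysed in R 4.3.3 with edgeR 4.0.16 (TMM, filterByExpr, prior count 2, quasi-likelihood test of dCAMP against gas, Benjamini-Hochberg over 14708 genes). SE was derived from the fold change and the F statistic. Transcript length was that implied by count and FPKM. Alternatives used DESeq2 1.42.0, limma 3.58.1, RLE factors, no filter, a length correction (lowess, span 0.3), the replicate number as a block, log2 of FPKM plus 1 or 0.1, library sizes without mitochondrial genes, and leaving out each library. Totals of 43084921 to 54082634 counts give the precision, and the limit of 3 counts for a 0 covers counting error only. The scripts were tested on simulated data.

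Named are the 13 mitochondrially encoded genes, in each complex the highest and lowest FPKM and fold change, paralog pairs, the SDH and subunit c genes, CYCS and the 2 assembly factors with the smallest p in each direction. Other genes named were chosen after their values were seen. For 1 subunit the values are not reported here, and it is left out of the plot of fold changes by gene; counts and medians include it. The members and lists were chosen with earlier results of these data known.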

Additional observations from a re-analysis of the deposited data

Results flagged for a closer look

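Among the other RNAs of the mitochondrial genome, 2 had every dCAMP library above every gas library, as 19% of all genes tested did, and a mean of at least 10 counts. The large ribosomal RNA (l-rRNA) had 10.5, 36.7 and 78.2 CPM in gas libraries 1, 2 and 3 and 90.9, 87.7 and 103.3 CPM in dCAMP libraries 1, 2 and 3, with a log2 fold change of 1.17. The tRNA-Tyr gene had 0, 6 and 10 counts in gas and 18, 17 and 13 counts in dCAMP, with a log2 fold change of 1.46. Neither had an unadjusted p under 0.05 in edgeR (0.112 and 0.0553). The small ribosomal RNA had 28.1, 69.9 and 88.5 CPM in gas and 95.6, 83.2 and 90.6 CPM in dCAMP, with overlap of the groups.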

How the results depend on the processing

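The subunits and factors were counted anew under each setting, so a count does not say how many genes of the main count were kept. The count of 24 nuclear subunits with an unadjusted p under 0.05 was 9 with the length correction (1 higher, 8 lower). It was 7 with that correction and the replicate block (3 higher, 4 lower) and 13 with the replicate block (3 higher, 10 lower). It was 56 (12 higher, 44 lower) with limma's voom and quality weights per sample and 5 to 42 without 1 library: 15 without gas 1, 6 without gas 2, 42 without gas 3, 5 without dCAMP 1, 5 without dCAMP 2 and 6 without dCAMP 3. With library sizes set without mitochondrial genes it was 25, all lower. The count of 0 mitochondrially encoded subunits was 12 with voom weights (11 higher, 1 lower) and 0 to 6 without 1 library: 1 lower without gas 1 and 6 higher without gas 3. The count of 0 subunits with an adjusted p under 0.05 was 65 with voom weights (21 higher, 44 lower) and 0 to 39 without 1 library, with 39 (5 higher, 34 lower) without gas 3. The count of 6 assembly factors, all lower, was 29 with voom weights (17 higher, 12 lower) and 3 to 20 without 1 library, with 3 without gas 2, dCAMP 1 or dCAMP 3 and 20 (10 higher, 10 lower) without gas 3. It was 7 (3 higher, 4 lower) with the block and 8 (5 higher, 3 lower) with the block and the length correction. Of 39 named genes, 563 of 624 values kept direction and side of the threshold, 53 passed it anew and 8 changed sign: ND1 (−0.034 without gas 1, to 0.75 without gas 3), CYTB (−0.046 to 0.87 likewise) and ND3 (−0.24 to 0.20 likewise, and −0.18 with voom weights), and UQCRH (0.020 and 0.019) and ATP5G3 (0.017 and 0.017) with the length correction alone and with the block. The causes were not tested. Calls over all genes moved with the setting too. Without gas 3, edgeR called 18.1% of all genes tested lower and 15% higher by adjusted p, against 0% in all libraries. Without gas 1, 11.8% were lower and 8.75% higher by unadjusted p. Shares of all genes under the other settings are not given here, so the changed counts cannot be read as particular to the subunits. The medians and the log2 ratio of both genomes kept their direction, at −0.32 to −0.16 (nuclear) and 0.20 to 1.24 (mitochondrially encoded) over all alternatives, and at 0.36 to 1.62 for the ratio.

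Same-numbered libraries had low correlations of their deviations, of 0.13, 0.02 and 0.05. Gas 1 and gas 2 each correlated best with the dCAMP library of their own number, while gas 3 correlated best with dCAMP 2 (0.09). These values do not settle whether the replicate numbers pair the samples, so the block is given only as an alternative. Adding 5 genes found by reference symbol, an alternative chosen after seeing the data, gave 25 nuclear subunits in place of 24. Counts at or below 3 set the limit for COX7A1, COX7B2 and ATP5I.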

Other observations

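The reference table gives subunit names to 5 further genes that the deposited table lists under other symbols. UQCRC1, a core protein of complex III, had 391.3, 356.8 and 289.7 CPM in gas libraries 1, 2 and 3 and 273.0, 274.6 and 274.6 CPM in the dCAMP libraries, with a log2 fold change of −0.34 (SE 0.12, unadjusted p = 0.0291 and adjusted p = 0.225 in edgeR). All gas libraries were above all dCAMP libraries. UQCRC2, its partner, had 203.5, 224.4 and 215.3 CPM in gas and 215.1, 221.0 and 217.0 CPM in dCAMP, a log2 fold change of 0.02. ATP5IF1, the inhibitor of ATP synthase, had a log2 fold change of −0.14, and the small ATP synthase subunits ATP5MK and ATP5MJ had 0.34 and −0.22. ATP5MK was lowest in gas 1, at 39.3 CPM against 62.7 and 75.5 CPM in gas 2 and gas 3 and 72.4 to 77.7 CPM in dCAMP.

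The tRNA genes of the mitochondrial genome were counted at low levels in these mRNA libraries. The one with the highest counts, tRNA-Ser between COX1 and tRNA-Asp, had 48, 2144 and 3779 counts in gas and 2834, 2769 and 2323 counts in dCAMP, with overlap of the groups, and its locus overlaps the end of COX1. The tRNA-Trp gene had 10, 183 and 221 counts in gas and 181, 186 and 201 counts in dCAMP. The tRNA-Glu gene, which has an average of under 10 counts, had 0, 7 and 0 counts in gas and 12, 16 and 13 counts in dCAMP. Every dCAMP library was above every gas library (19% of all genes tested), and it was the only one of these RNAs with an unadjusted p under 0.05 in edgeR (log2 fold change 1.99, unadjusted p = 0.0315, adjusted p = 0.226).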
